A study of Citrus sinensis with 30 samples.

Results

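The comparison described here is the middle of cold storage in the juice sacs of ‘Bingtangcheng’ sweet orange (BTSO, Citrus sinensis), 60 days after storage (DAS) against 30 DAS. It sets 6 of the 30 RNA-seq libraries of the series against each other, the 3 replicates of BTSO at each of the 2 days, with the spread between replicates and the filter taken from all 30, and takes in every gene that passed a filter on low values, 16578 of the 24179 genes in the deposited table. The whole series followed BTSO, which does not turn red, and ‘Tarocco’ blood orange (TBO), whose flesh does, through 5 days of sampling (0 DAS, 15 DAS, 30 DAS, 60 DAS and lastly 90 DAS), with 3 replicates per group. Fruit of both varieties were bagged in polyethylene and kept at a low temperature, so every library compared here comes from detached, stored fruit, and no library of fruit kept warm or left on the tree enters any comparison. The juice sac is the whole vesicle, a mixture of large vacuolated juice cells with epidermis and stalk, so a lower transcript level cannot be told apart from fewer cells of the type that makes the transcript.

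Juice sacs keep respiring after harvest and draw on the sugars and the citrate stored in their vacuoles. Known features of storing citrus fruit at low temperature are the synthesis of galactinol and raffinose family sugars and of late embryogenesis abundant proteins, which protect cells against cold and water loss, the desaturation of membrane lipids, and a slow remodelling of the cell wall, in which pectinesterases remove methyl groups from pectin and glycosidases trim the other wall polymers. Volatiles of the fruit, limonene first among them, are made by terpene synthases.

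The 6 libraries held 64063824 to 75833189 estimated counts each, inside the range of 51894138 to 75833189 over all 30. The 3 libraries of 30 DAS all had larger totals than the 3 of 60 DAS, and more genes listed above 0 (20034 ± 78.8 against 19811 ± 91.6 genes, SD, n = 3; exact permutation p = 0.1, two-sided, the smallest that 3 against 3 allows). Genes at an FPKM (fragments mapped, scaled to transcript length and to library size) of 1 or more went the other way, 14672 ± 145 at 30 DAS and 14833 ± 72.9 at 60 DAS (n = 3, exact permutation p = 0.1). The 10 most abundant genes took 12.8 to 19.0% of the counts at 30 DAS and 10.5 to 13.3% at 60 DAS. Replicates correlated at r = 0.972 to 0.980 within 30 DAS and 0.969 to 0.979 within 60 DAS on the log2 scale, across genes. The defining proteins of photosynthetic tissue, seed, cuticle, phloem and lignified xylem were used to look for other tissue. Of the 14 photosystem, 5 seed storage, 11 cuticle and 11 phloem genes tested none was called. The summed FPKM of the photosystem list was 73.2 to 81.3 at 30 DAS and 81.2 to 88.9 at 60 DAS. The cuticle list had 284 to 397 and then 361 to 441, the phloem list 107 to 122 and then 107 to 132, and the seed list 55.4 to 75.6 and then 56.4 to 59.5. From which cells these transcripts came was not tested. Of 4 xylem genes tested 1 rose, the laccase described below.

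Few genes changed between 30 and 60 DAS. With limma on log2(FPKM + 1), and a gene called where the Benjamini-Hochberg adjusted p was under 0.05 and the log2 difference over 1 in either direction, 151 of 16578 genes were called (0.911%), 68 of them higher at 60 DAS (0.41%) and 83 lower (0.501%). This was the smallest count among the 4 intervals of BTSO storage, which gave 237 genes from 0 to 15 DAS (1.43%), 725 from 15 to 30 DAS (4.37%) and 478 from 60 to 90 DAS (2.88%), although neighbouring intervals share a group and their difference was not tested. Among the called genes the log2 difference reached 2.83 upwards and -2.22 downwards, and it was under 1.5 in size in 50 of the 68 and 62 of the 83. The FPKM of the 2 groups did not overlap in 59 of the 68 and 79 of the 83, where 23.6% of all genes tested did not overlap. On the adjusted p alone, 1971 genes passed (11.9%), 1558 of them higher (9.4%) and 413 lower (2.49%), so small increases were much more frequent than small decreases. Counts of calls in the lists and families below are to be read beside the shares of 0.41% higher and 0.501% lower. The median log2 difference of all genes tested was 0.08, and the split between directions depended on this shift. Upper-quartile scaling gave 52 higher and 105 lower, with a median of 0.02, and quantile normalization 49 higher and 112 lower, with a median of 0.01. A fit on the 6 libraries alone called 22 genes, 3 higher and 19 lower, all of them among the 151. It takes the spread from these libraries only and has few degrees of freedom. Which of these lowered the count was not tested.

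The higher genes depended more on single libraries than the lower ones. Replicate 2 of 30 DAS was the lowest of its group in 47 of the 68 higher genes (69.1%, against 25.2% of all genes tested), and replicate 3 of 60 DAS was the highest of its group in 50 (73.5%, against 29.9%). Without replicate 2 of 30 DAS 27 of the 68 were still called, and without replicate 3 of 60 DAS 30 were, where of the 83 lower genes 65 and 60 were. Without replicate 3 of 30 DAS the count of higher genes was 106 and without replicate 2 of 60 DAS 120. In all, 16 of the 68 higher and 43 of the 83 lower genes were called whichever of the 6 libraries was left out. What sets these libraries apart was not tested.

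**Figure D1:**
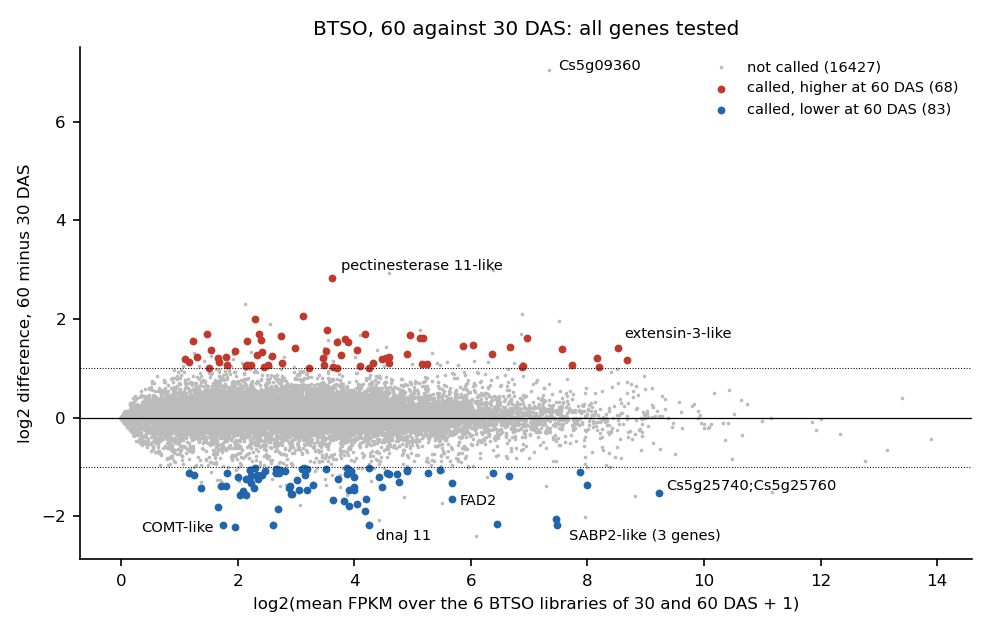
Log2 difference between 60 and 30 DAS (y axis, on log2(FPKM + 1)) against the log2 mean level over the 6 libraries (x axis), 1 point per gene tested, with the 68 genes called higher in red and the 83 called lower in blue. Dotted lines mark a log2 difference of 1 either way, and Cs5g09360, at 7.04, was not called.

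Among the steepest declines were those of 3 genes described as salicylic acid-binding protein 2-like (SABP2-like). SABP2 of tobacco is an esterase that releases salicylic acid from its methyl ester. Cs1g23200 had 254, 302 and 313 FPKM at 30 DAS and 66.8, 41.6 and 89.3 FPKM at 60 DAS. Every library of 60 DAS lay below every library of 30 DAS, with a 4.39-fold ratio of the means and a log2 difference of -2.18 ± 0.34 (SE, adjusted p = 0.00033). Cs1g23170 had 240.1, 320.2 and 282 FPKM and then 66.9, 49.8 and 87.4 FPKM (log2 difference -2.06 ± 0.35, adjusted p = 0.00076). Cs1g23160 had 118, 171 and 135 FPKM and then 30.5, 23.2 and 40.3 FPKM (-2.15 ± 0.36, adjusted p = 0.00066). Cs1g23160 was the lowest of the 3 in every library. How reads shared by like copies were counted is not given in the sources used here, so the 3 may not be independent measurements. In BTSO they stood out at 30 DAS. The mean of Cs1g23200 was 29.8 FPKM at 0 DAS and 64.8 FPKM at 15 DAS, before the 289 FPKM of 30 DAS, and it ended at 24.8 FPKM at 90 DAS, and in TBO it stayed between 1.20 and 2.77 FPKM on all 5 days. Of 7 genes tested whose descriptions name this protein or a related methylesterase, the 3 above were called and the median log2 difference was -0.87, beside 0.08 for all genes. Of the others, Cs1g22020 had means of 224 and 126 FPKM (-0.87, adjusted p = 0.0046).

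Several other genes had the same course, with a maximum at 30 DAS. The highest of the 5 BTSO means fell on 30 DAS in 64 of the 83 lower genes (77.1%), which the choice of genes that were higher at 30 than at 60 DAS favours, against 18.5% of all genes tested. In TBO, whose group means do not enter the difference between 60 and 30 DAS in BTSO but whose libraries entered the filter and the estimate of spread behind the calls, the mean was highest at 30 DAS in 33 of the 83 (39.8%), against 13.7% of all genes tested.

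Cs3g26220, a chloroplastic dnaJ 11-like co-chaperone of the heat shock protein system, had 36.8, 26.9 and 27.5 FPKM at 30 DAS and 7.51, 4.90 and 5.35 FPKM at 60 DAS (log2 difference -2.19 ± 0.30, adjusted p = 9.8e-05). Its libraries did not overlap, and its mean at 15 DAS had been 3.86 FPKM. Of 85 heat shock proteins and chaperones tested it was the only one called in either direction. On the adjusted p alone 13 were higher and 2 lower, against 9.4% and 2.49% of all genes, with a list median of 0.15 (0.09 with upper-quartile scaling). The largest of the 13 was Cs9g14610, a BAG family co-chaperone, with means of 21.6 and 34.4 FPKM (log2 difference 0.65).

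The merged locus of Cs5g33290, Cs5g33300 and Cs5g33320, described as ARG2, a protein first known as auxin-induced in mung bean and related to the late embryogenesis abundant proteins, had 349, 382 and 369.7 FPKM at 30 DAS and 149, 138 and 136 FPKM at 60 DAS (-1.37 ± 0.19, adjusted p = 9.9e-05). The replicates were tight and the groups far apart. In TBO the locus had means of 297 and 331 FPKM on the same days.

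Of 14 genes tested that are described as caffeic acid 3-O-methyltransferases, which methylate precursors of lignin and related phenolics, 3 fell and none rose, while the median of the 14 was 0.02. Cs5g16860 had 14.5, 52.9 and 18.6 FPKM at 30 DAS and 6.34, 6.61 and 4.78 FPKM at 60 DAS (-1.89 ± 0.43, adjusted p = 0.0069). The remaining pair was low throughout. Cs5g18040 had 1.49, 8.08 and 4.32 FPKM and then 0.33 FPKM in replicate 1 and 0 in the others (-2.17 ± 0.36, adjusted p = 0.0007), and Cs5g18010 had 1.13 to 7.56 FPKM and then 0.15 to 0.41 FPKM (-1.80 ± 0.38, adjusted p = 0.0036). Replicate 2 was the highest library of 30 DAS in all 3 genes.

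Among 124 ubiquitin ligases tested, which mark proteins for breakdown, 3 fell and none rose, where 0.501% of all genes tested fell and 0.41% rose. Cs7g08000, described as TRAF7, had 9.58, 10.7 and 10.8 FPKM at 30 DAS and 3.12, 3.74 and 1.98 FPKM at 60 DAS (-1.55 ± 0.20, adjusted p = 5.5e-05). The RING-H2 proteins Cs5g01950 (RHA4a, -1.13 ± 0.22) and Cs5g29920 (ATL16, -1.12 ± 0.18) had means of 7.71 and 7.91 FPKM at 30 DAS and of 2.95 and 3.12 FPKM at 60 DAS. The call of Cs5g01950 was lost without replicate 2 of 30 DAS (-0.98) or replicate 1 of 60 DAS (-0.96).

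Cytochrome P450 and defence genes added single calls, where 0.501% of all genes tested fell and 0.41% rose. Cs5g06350, a cytochrome P450 71A1-like gene on chromosome 5 (3939036 to 3940933, plus strand, in the coordinates of the deposited table), had 4.01, 4.46 and 5.40 FPKM at 30 DAS and 1.21, 1.95 and 1.21 FPKM at 60 DAS (-1.20 ± 0.13, adjusted p = 2.1e-05). It was 1 of 68 P450 genes tested that fell, beside 1 that rose. Of 292 receptor kinases and resistance proteins 1 fell, the RGA2-like orange1.1t01179, of a family that senses pathogen effectors, with 31.2, 34.2 and 39.7 FPKM and then 16.4, 21.96 and 9.78 FPKM (-1.14 ± 0.21, adjusted p = 0.0012, or -0.84 without replicate 3 of 60 DAS). Both had been low before 30 DAS, with means of 1.23 and 6.82 FPKM at 15 DAS.

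Among transcription factors the calls were scattered. None of 15 WRKY, 28 NAC, 36 MYB or 27 AP2/ERF genes tested was called. Cs3g25620, a B-box protein 21 whose relative in Arabidopsis promotes light responses, had 15.5, 14.01 and 13.4 FPKM and then 6.14, 7.16 and 6.18 FPKM (-1.03 ± 0.13, adjusted p = 4.6e-05). Cs2g03700, described as bHLH144, had 22.6, 25.7 and 23.5 FPKM and then 19.9, 9.58 and 7.45 FPKM (-1.02 ± 0.19, adjusted p = 0.0015), so replicate 1 of 60 DAS stood close to the 30 DAS level. Both lie near the limit of a log2 difference of 1 and were under it without 1 library, Cs3g25620 without replicate 1 of either day (-0.98 and -0.998) and Cs2g03700 without replicate 2 of 30 DAS (-0.96), replicate 2 of 60 DAS (-0.91) or replicate 3 of 60 DAS (-0.74). Of 51 homeobox, bZIP, GATA and zinc finger genes tested 1 rose, orange1.1t02547, described as ATHB-12-like and known in Arabidopsis as a homeodomain factor induced by water deficit and abscisic acid. It had 24.7, 19.2 and 21.6 FPKM at 30 DAS and 46.8, 51.6 and 43.7 FPKM at 60 DAS (1.08 ± 0.25, adjusted p = 0.0066), and without replicate 2 of 30 DAS the difference was 0.9996, just under the limit.

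Some lower genes were also lower at 90 than at 15 DAS. This was not a set apart from the genes that peaked at 30 DAS. The SABP2-like genes above had their lowest BTSO mean at 90 DAS as well. Both steps to raffinose family sugars were lower at 90 than at 15 DAS. Cs3g15460, a galactinol synthase 2-like gene and so the first step, had 21.7, 26.6 and 18.3 FPKM at 30 DAS and 6.84, 7.99 and 3.08 FPKM at 60 DAS (-1.80 ± 0.43, adjusted p = 0.0089, or 0.061 without replicate 3 of 60 DAS). Its mean had been 86.9 FPKM at 0 DAS and ended at 1.56 FPKM at 90 DAS. Cs2g27610, a galactinol-sucrose galactosyltransferase that makes raffinose from galactinol, had 5.75, 4.98 and 5.22 FPKM and then 1.22, 1.53 and 1.03 FPKM (-1.49 ± 0.30, adjusted p = 0.003). Of 7 genes tested that the table assigns to raffinose or stachyose synthases, 2 fell, none rose and the median was -0.59. The other one that fell was Cs4g05490, with 23.6, 18.9 and 23.1 FPKM and then 7.58, 11.5 and 4.93 FPKM (-1.404 ± 0.36, adjusted p = 0.013). Its mean had been 2.18 FPKM at 15 DAS, so that 30 DAS was its maximum. This family was put together after the values were seen.

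Of 18 proteins of dehydration and cold tested, 2 fell and none rose, where 0.501% of all genes fell. On the adjusted p alone 5 were lower and none higher, against 2.49% and 9.4% of all genes, while 7 of the 18 had positive differences and the median was -0.19. The 5 include orange1.1t03773 (-0.76), described as a chloroplastic linoleate 13S-lipoxygenase, which the jasmonate list holds as well. Besides the galactinol synthase the list holds orange1.1t02242, an 11 kDa late embryogenesis abundant protein, which had 65.5, 84.8 and 65.2 FPKM at 30 DAS and 28.8, 26.1 and 29.3 FPKM at 60 DAS (-1.32 ± 0.26, adjusted p = 0.0022). The dehydrin Cs3g26970 was far more abundant, with means of 652 and 460.5 FPKM, and passed on the adjusted p but not on size (-0.51, adjusted p = 0.037). The neighbour by number of the first, orange1.1t02241, encodes FAD2, the desaturase that makes linoleate in the endoplasmic reticulum. It had 57.2, 95.7 and 77.1 FPKM and then 25.2, 30.1 and 16.3 FPKM (-1.65 ± 0.22, adjusted p = 9.0e-05), after a mean of 112 FPKM at 0 DAS, and reached 8.41 FPKM at 90 DAS.

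Of 10 terpene synthases tested by description, 2 fell and none rose, both of them (R)-limonene synthases. Cs3g04360 had 22.6, 32.1 and 68.5 FPKM at 30 DAS and 19.6, 12.04 and 19.9 FPKM at 60 DAS (-1.09 ± 0.30, adjusted p = 0.021), and Cs3g04170 had 10.5, 16.2 and 34.8 FPKM and then 9.49, 6.49 and 8.66 FPKM (-1.07 ± 0.31, adjusted p = 0.025). The groups did not overlap, but in both genes replicate 3 of 30 DAS was far above the others, and the difference without it was -0.65 (adjusted p = 0.13) and -0.63 (adjusted p = 0.15). Neither call held without replicate 2 of 60 DAS either (-0.87 and -0.93), and without replicate 3 of 60 DAS Cs3g04170 had an adjusted p of 0.056. All 4 limonene synthases tested had negative log2 differences, from -1.09 to -0.15. A terpene synthase of another kind went up: Cs5g31210, a gene of the defence response by its annotation and without a descriptive name, had 1.87, 1.01 and 2.99 FPKM and then 7.62, 5.75 and 27.1 FPKM (2.05 ± 0.39, adjusted p = 0.0019). Its mean at 15 DAS had been 5.68 FPKM, above that of 30 DAS.

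The called gene with the highest mean at 30 DAS was the merged locus of Cs5g25740 and Cs5g25760, annotated only as cell wall proteins with oxalate decarboxylase activity. It had 1129.5, 737 and 811 FPKM at 30 DAS and 308, 282 and 324 FPKM at 60 DAS (-1.53 ± 0.27, adjusted p = 0.0011), and its BTSO mean went from 3153 FPKM at 0 DAS to 192 FPKM at 90 DAS. Cs2g31080, annotated with lipid transport, had 357, 267 and 331 FPKM and then 130.1, 129 and 191 FPKM (-1.09 ± 0.20, adjusted p = 0.0012). Without replicate 2 of 60 DAS its difference was -0.997, just short of the limit. The asparagine synthetase Cs8g20410, which moves amide nitrogen to aspartate, had 16.6, 17.2 and 21.99 FPKM and then 8.29, 9.31 and 8.29 FPKM (-1.02 ± 0.20, adjusted p = 0.0027), and fell under the limit without replicate 3 of 30 DAS (-0.90) or replicate 1 or 3 of 60 DAS (-0.99 in both). Cs1g06880, whose annotation names the same activity, went the other way, from a mean of 194 ± 79.5 to 394 ± 189 FPKM (SD, n = 3, log2 difference 1.02 ± 0.30, adjusted p = 0.028). That call was lost without replicate 2 of 30 DAS (0.62) or replicate 3 of 60 DAS (0.65). The mean of Cs1g06880 at 15 DAS had been 620 FPKM, above both.

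**Figure D2:**
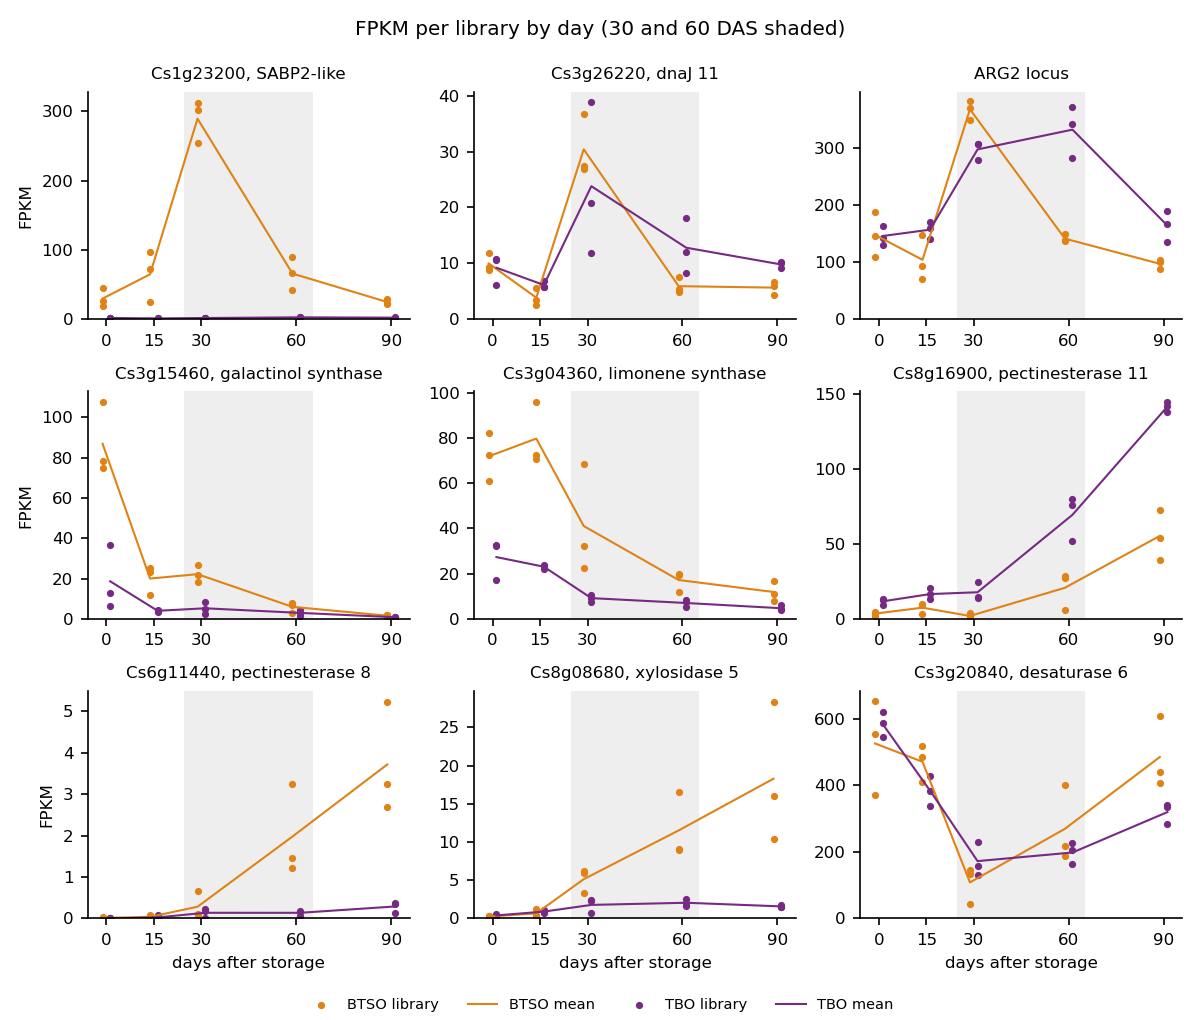
FPKM in every library (points) and group mean (lines) against days after storage for 9 called genes, BTSO in orange and TBO in purple, with 30 to 60 DAS shaded. Cs1g23200 peaks in BTSO at a mean of 289 FPKM at 30 DAS and is between 1.20 and 2.77 FPKM in TBO. In BTSO the mean of Cs3g15460 goes from 86.9 FPKM at 0 DAS to 1.56 FPKM at 90 DAS. Cs8g16900 rises from 30 to 60 DAS in both varieties, in BTSO after a dip at 30 DAS.

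Several genes of the cell wall were among those that rose. Of 43 pectin modifying enzymes tested, 3 rose and none fell, where 0.41% of all genes tested rose and 0.501% fell. All 3 were pectinesterases, and the list median of 0.08 was equal to that of all genes. Cs8g16900, a pectinesterase 11-like gene, showed the largest increase of all called genes. It had 3.78, 0.23 and 1.82 FPKM at 30 DAS and 28.6, 6.07 and 27.6 FPKM at 60 DAS, a 10.7-fold ratio of the means (2.83 ± 0.48, adjusted p = 0.00075), and it was still called whichever of the 6 libraries was left out. Its mean had been 7.47 FPKM at 15 DAS, so the rise followed a dip at 30 DAS (15 to 30 DAS, log2 difference -1.60, adjusted p = 0.012). At 90 DAS its mean was 55.4 FPKM. Cs6g11440, a pectinesterase 8 (chromosome 6, 12613908 to 12617009, plus strand, in the coordinates of the deposited table), had 0.10, 0.08 and 0.67 FPKM and then 1.46, 1.22 and 3.25 FPKM (1.18 ± 0.19, adjusted p = 0.00058), a small amount of transcript that was near 0 at 0 DAS (mean 0.01 FPKM). Cs4g06890, a pectinesterase 63, had 4.53, 5.21 and 9.46 FPKM and then 17.6, 12.9 and 11.7 FPKM (1.06 ± 0.28, adjusted p = 0.014).

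Of 48 cellulose, xyloglucan and expansin genes tested 2 rose and none fell, beside 0.41% and 0.501% of all genes tested. The xyloglucan endotransglucosylase/hydrolase orange1.1t02385, which cuts and rejoins xyloglucan chains, had 2.75, 0.08 and 2.67 FPKM and then 9.05, 7.53 and 3.60 FPKM (1.57 ± 0.42, adjusted p = 0.016). The beta-D-xylosidase 5 gene Cs8g08680 had 3.28, 6.22 and 5.94 FPKM and then 9.10, 8.94 and 16.5 FPKM (1.01 ± 0.30, adjusted p = 0.03), after means of 0.26 and 0.68 FPKM at 0 and 15 DAS. The extensin-3-like locus within Cs3g21160, a structural glycoprotein of the wall and the called gene with the largest gain in FPKM, had 205, 113 and 281 FPKM and then 285, 666 and 661 FPKM (1.42 ± 0.43, adjusted p = 0.034). The gap between its groups was only that between 281 and 285 FPKM. The laccase-11-like gene Cs1g24250, of a family that oxidizes lignin precursors, had 0.29, 0.31 and 1.09 FPKM and then 2.01, 1.91 and 5.99 FPKM (1.37 ± 0.24, adjusted p = 0.0011).

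Of these wall genes only Cs8g16900 was called without each of the 6 libraries in turn. Without replicate 3 of 60 DAS the differences of Cs6g11440 (0.90), Cs8g08680 (0.74) and Cs1g24250 (0.96) were under 1. Without replicate 2 of 30 DAS those of orange1.1t02385 (0.98) and Cs4g06890 (0.96) were. Cs4g06890 was also lost without replicate 1 of 30 DAS (0.88) or of 60 DAS (0.90), Cs8g08680 without replicate 1 of 30 DAS (0.77), and orange1.1t02385, at 1.35, had an adjusted p of 0.074 without replicate 1 of 60 DAS. The extensin-3-like locus had an adjusted p of 0.07 to 0.16 without replicate 1 or 2 of 30 DAS or replicate 2 or 3 of 60 DAS. The count test of edgeR did not call the extensin-3-like locus (adjusted p = 0.06), Cs6g11440 (0.067), Cs4g06890 (0.087), Cs8g08680 (0.16) or orange1.1t02385 (0.19), and upper-quartile scaling lost the first of these (adjusted p = 0.051). With that scaling the log2 differences of Cs8g08680 (0.95) and Cs4g06890 (0.998) were also under the limit.

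Single families gave further calls. Of 5 genes tested that are described as methanol O-anthraniloyltransferases, the enzyme that makes methyl anthranilate in grape, 2 rose and all 5 had positive differences. The merged locus of Cs2g29810 and Cs2g29820 had 13.6, 4.16 and 6.48 FPKM at 30 DAS and 28.8, 18.3 and 32.2 FPKM at 60 DAS (1.70 ± 0.35, adjusted p = 0.0032), and Cs2g31400 had 5.27, 1.38 and 3.74 FPKM and then 11.8, 6.87 and 12.3 FPKM (1.42 ± 0.31, adjusted p = 0.0045). Both were called without each of the 6 libraries in turn. Of 33 pathogenesis-related proteins tested 1 rose, the pathogenesis-related protein 1 gene Cs1g19920, a marker of salicylic acid responses in many plants. It had 38.6, 14.3 and 41.9 FPKM and then 73.2, 58.1 and 119.7 FPKM (1.45 ± 0.33, adjusted p = 0.0072), with an adjusted p of 0.051 without replicate 2 of 30 DAS and 0.054 without replicate 3 of 60 DAS. Its mean at 15 DAS had been 60.8 FPKM, above that of 30 DAS. The list did not move one way, with 2 genes higher and 2 lower on the adjusted p alone and a median of -0.01. The 2 lower were the basic endochitinase Cs1g26330, which breaks down chitin, with means of 443 and 225 FPKM and a log2 difference just short of the limit (-0.9998, adjusted p = 0.0086), and the glucan endo-1,3-beta-glucosidase 14 gene Cs8g14950, with means of 169 and 101 FPKM (-0.70, adjusted p = 0.035). Cs2g22810 and Cs2g22770, annotated with the response to wounding and otherwise undescribed, rose too. Cs2g22810 had 9.94, 3.00 and 6.84 FPKM and then 19.9, 17.2 and 23.4 FPKM (1.58 ± 0.28, adjusted p = 0.0012), and the loci of Cs2g22770 had log2 differences of 2.003 ± 0.28 and 1.65 ± 0.27. For Cs2g22810 the level at 60 DAS was still below the mean of 65.9 FPKM at 0 DAS. The loci of Cs2g22770 had means of 9.80 and 6.59 FPKM at 15 DAS and of 1.06 and 2.39 FPKM at 30 DAS.

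Plasma membrane calcium pumps accounted for the 2 genes that rose out of 50 calcium signalling genes tested, of which none fell. Of all genes tested 0.41% rose. The merged locus of Cs3g08550 and Cs3g08570, a calcium-transporting ATPase 12, had 5.80, 5.06 and 5.89 FPKM and then 10.7, 15.9 and 17.01 FPKM (1.22 ± 0.17, adjusted p = 9.2e-05). Cs3g08580, of the same description, had 2.90, 2.10 and 3.03 FPKM and then 4.87, 7.15 and 8.36 FPKM (1.07 ± 0.19, adjusted p = 0.0011), or 0.95 and 0.92 without replicate 2 of 30 DAS or replicate 3 of 60 DAS. These genes too had been higher before 30 DAS, with means of 16.8 and 8.66 FPKM at 15 DAS. The water channel Cs8g16640, known only by its annotation, had 152, 139.8 and 117 FPKM at 30 DAS and 244, 281 and 344 FPKM at 60 DAS (1.08 ± 0.19, adjusted p = 0.0012), or 0.97 and 0.95 without replicate 3 of either day and 0.98 with edgeR or DESeq2. Of 17 genes tested with annotated water channel activity it was the only one that rose, and 1 fell, with a median of 0.05. The one that fell, Cs7g28650, had 5.44, 6.77 and 3.56 FPKM at 30 DAS and 1.64, 1.98 and 1.20 FPKM at 60 DAS (-1.24 ± 0.19, adjusted p = 0.00028), and was called without each of the 6 libraries in turn.

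In lipid metabolism, Cs3g20840, a stearoyl-acyl carrier protein desaturase 6 that puts the first double bond into plastid fatty acids, had 146, 44.6 and 135 FPKM and then 187, 219 and 402 FPKM (1.399 ± 0.32, adjusted p = 0.0071), against a mean of 525 FPKM at 0 DAS. Cs7g13930, a cytochrome P450 86B1 known in Arabidopsis for hydroxylating very long chain fatty acids of suberin, had 17.2, 6.59 and 14.5 FPKM and then 23.0, 23.9 and 41.9 FPKM (1.19 ± 0.25, adjusted p = 0.0036). Both had dropped from 15 to 30 DAS, from means of 470 and 31.2 FPKM (log2 differences -2.28 and -1.31). Neither mean at 60 DAS was above that at 15 DAS. In both, replicate 2 of 30 DAS was the lowest library by far, and without it the differences were 0.86 and 0.81. Without replicate 3 of 60 DAS they were 1.07 (adjusted p = 0.056) and 0.92.

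Of 41 flavonoid and anthocyanin enzymes tested 1 rose, the chalcone synthase 1 gene Cs9g11190, the entry to the pathway. It had 0.99, 1.87 and 5.11 FPKM at 30 DAS and 3.80, 7.22 and 10.9 FPKM at 60 DAS (1.25 ± 0.35, adjusted p = 0.021). The groups overlapped, and the adjusted p was 0.13 without replicate 1 of 30 DAS, 0.066 without replicate 2 of 30 DAS and 0.12 without replicate 3 of 60 DAS. The same gene had a mean of 1068 FPKM at 30 DAS and 1838 FPKM at 60 DAS in TBO, so in BTSO it was low on both days. The 4-coumarate-CoA ligase-like gene Cs7g21790 completed the 2 phenylpropanoid genes that rose, of 47 tested, beside 3 that fell, the methyltransferases above. It had 2.15, 0.34 and 1.20 FPKM and then 4.01, 1.503 and 5.86 FPKM (1.07 ± 0.30, adjusted p = 0.024), with overlapping groups, and its call was lost without replicate 2 of 30 DAS (0.75) or replicate 1 (0.98) or 3 (0.75) of 60 DAS.

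No enzyme of acid or primary sugar metabolism was called in the lists used. None of 11 tricarboxylic acid cycle enzymes, 7 enzymes of citrate cleavage, phosphoenolpyruvate and the GABA shunt, 15 proton pumps, 43 glycolysis and fermentation enzymes, 43 sucrose and starch enzymes and 18 sugar transporters tested passed both limits, and the list medians ran from -0.06 to 0.16. The same held for 47 ethylene, 19 jasmonate and 18 abscisic acid signalling genes, 22 carotenoid and abscisic acid enzymes, 36 peroxidases and oxidant scavengers and 52 glutathione transferases, glutaredoxins and thioredoxins. In all, 17 of 51 lists held a called gene. Of 32 gibberellin, cytokinin and brassinosteroid genes none was called, but 9 were higher and 1 lower on the adjusted p alone, against 9.4% and 2.49% of all genes. The list median was 0.22 (0.17 with upper-quartile scaling). The 9 included gibberellin oxidases of the last steps of gibberellin synthesis, orange1.1t05342 (0.68 to 2.05 FPKM in the means, log2 difference 0.84, adjusted p = 0.0087) and Cs1g09890 (1.35 to 3.31 FPKM, 0.81, adjusted p = 0.022). The other higher genes were not gibberellin genes. They were the cytokinin enzymes Cs8g16360 (LOG1, 0.74) and orange1.1t00627 (a cytokinin dehydrogenase, 0.53) and response regulators, among them APRR1 and APRR9 of the circadian list. The 1 lower gene was Cs2g07550, a gibberellin 2-beta-dioxygenase, which inactivates gibberellins (8.05 to 3.75 FPKM, -0.93, adjusted p = 0.021). The lists rest on the descriptions in the table, which name no function for 9829 of the 16578 genes tested and for 42 of the 68 higher and 50 of the 83 lower genes.

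The 14 structural and regulatory genes that the study singles out for citrate and anthocyanin were all tested, and none was called between 30 and 60 DAS in BTSO. Their log2 differences ran from -0.21, in the transcription factor PH4 (Cs9g03070, adjusted p = 0.61), to 0.91 ± 0.48, in the gene the study names F3H (Cs2g04110, adjusted p = 0.23), with 12 of 14 above 0 and a median of 0.24. The vacuolar proton pump PH8 (Cs1g16150) had a log2 difference of 0.07 ± 0.25. The phosphoenolpyruvate carboxykinase-like gene Cs3g16700, which the study names PEPCK1, a phosphoenolpyruvate carboxylase kinase, had one of 0.19 ± 0.13. These genes were chosen by the study on the same samples. Chalcone isomerase may be counted more than once among them, since the study gives Cs7g29780 in its text and Cs7g20780, as CHIL, in its primer list.

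**Figure D3:**
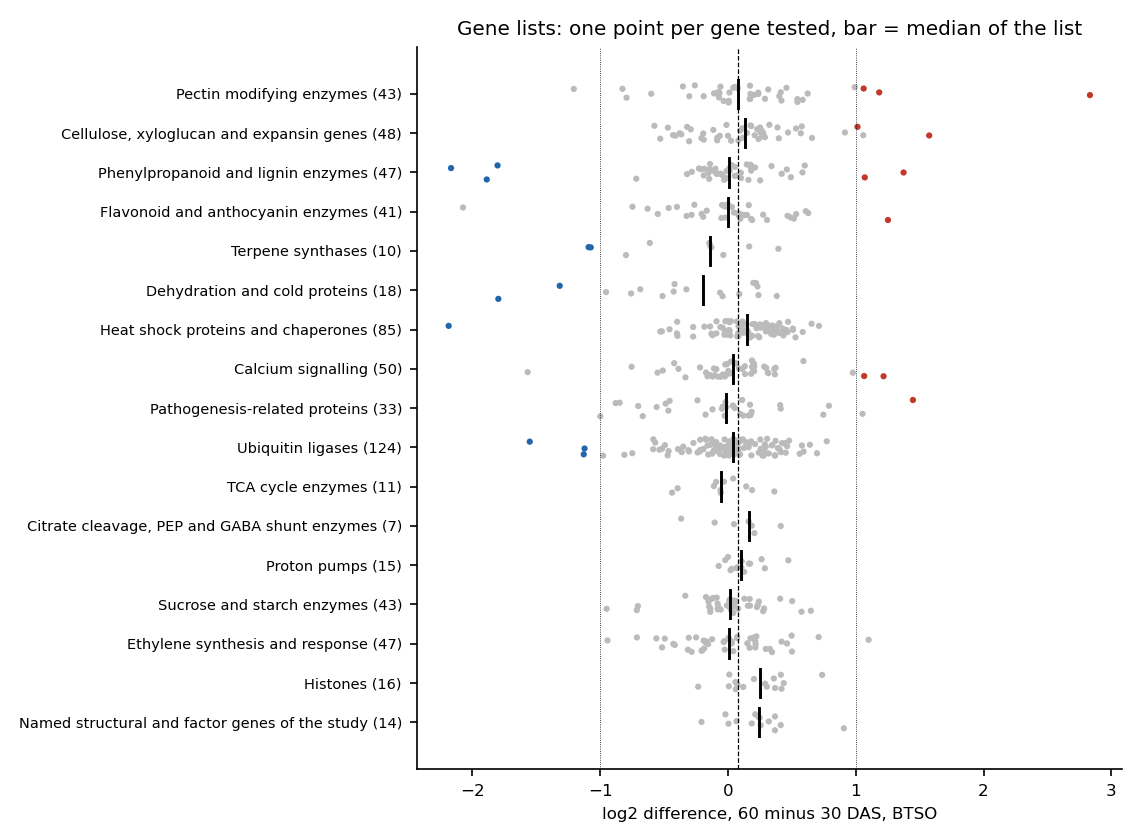
Log2 difference between 60 and 30 DAS in BTSO (x axis) of every gene tested in 17 gene lists (rows, with the number tested in brackets), called genes in red (higher) and blue (lower), others in grey. Black bars are list medians and the dashed line the median of all genes, 0.08. The list medians run from -0.19, in the dehydration and cold proteins, to 0.25, in the histones. Of the 16 histones 15 are above 0 and none was called.

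The course of the called genes at other days was read from the 90 and 15 DAS libraries of BTSO. Their means do not enter the difference between 60 and 30 DAS, though the libraries were part of the filter and of the estimate of spread behind the calls. From 15 to 90 DAS, 888 genes were called (5.36%), 575 higher (3.47%) and 313 lower (1.89%). Of the 68 genes higher at 60 DAS, 62 were also higher at 90 than at 15 DAS, against 67.1% of all genes tested, and 32 of them were called higher, 1 was called lower, and the median log2 difference was 0.93, beside 0.18 for all genes. Of the 83 lower genes, 62 were lower at 90 than at 15 DAS, against 32.7% of all genes tested, and 29 were called lower and none higher, with a median of -0.49. The lower genes therefore included some that were lower late in storage and some that were not. Cs1g23200, with its maximum at 30 DAS, was called lower at 90 than at 15 DAS (-1.16, adjusted p = 0.0075). Cs3g15460 (-3.01), Cs5g16860 (-3.38), orange1.1t02242 (-2.91) and Cs3g04360 (-2.69) were far lower at 90 than at 15 DAS, whereas Cs3g26220 (0.49, adjusted p = 0.2) and the ARG2 locus (-0.04, adjusted p = 0.9) were not called there. The gene that went against the rest was Cs1g13080, with annotated amino acid racemase activity, which had 4.66, 4.03 and 3.93 FPKM at 30 DAS, 19.1, 19.5 and 12.6 FPKM at 60 DAS (1.77 ± 0.40, adjusted p = 0.0065) and a mean of 22.3 FPKM at 15 DAS and 7.64 FPKM at 90 DAS.

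**Figure D4:**
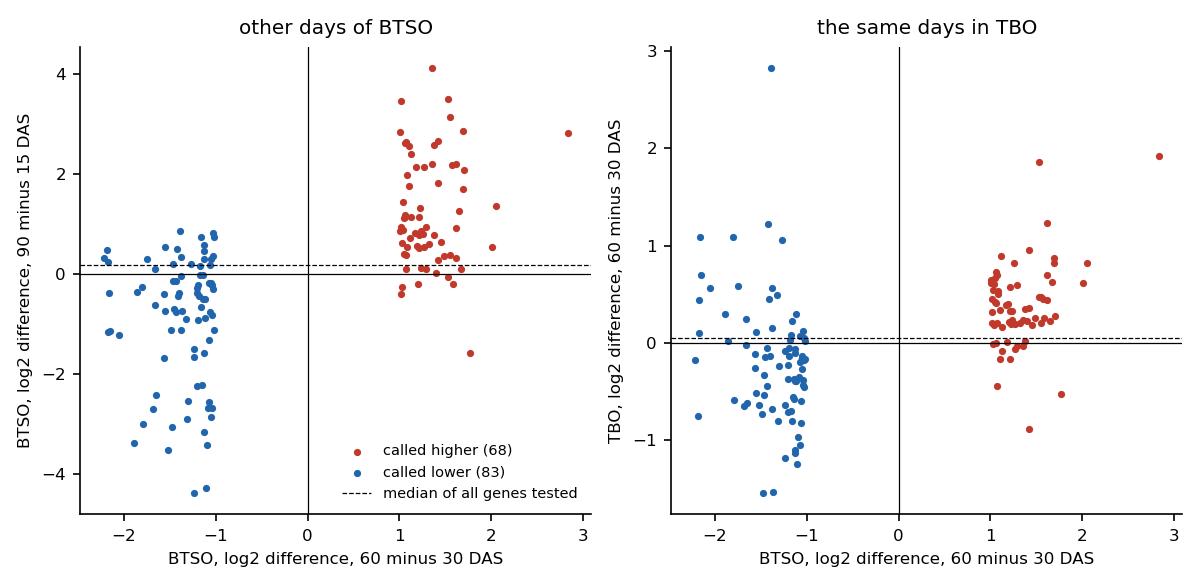
The 151 called genes, their log2 difference between 60 and 30 DAS in BTSO (x axes) against the difference between 90 and 15 DAS in BTSO (left, y axis) and between 60 and 30 DAS in TBO (right, y axis), with dashed lines at the medians of all genes tested, 0.18 and 0.05. Of the 68 red points 62 lie above 0 on the left and 57 on the right, and of the 83 blue points 62 and 57 lie below.

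In TBO over the same interval 272 genes were called (1.64%), 246 higher (1.48%) and 26 lower (0.157%). The genes called in BTSO moved little there. Of the 68 higher genes, 57 were above 0 in TBO, against 60.3% of all genes tested, 2 were called higher and the median was 0.34, beside 0.05 for all genes. Of the 83 lower genes, 57 were below 0, against 39.6%, with 7 called lower, 3 called higher and a median of -0.18. The pectinesterase Cs8g16900 was 1 of the 2 called higher in both varieties, with TBO means of 17.8 and 69.5 FPKM (1.93, adjusted p = 0.015), and Cs9g15430, a serine protease inhibitor, was the other. In BTSO Cs9g15430 had 5.06, 5.68 and 5.70 FPKM and then 13.4, 15.1 and 27.0 FPKM (1.53 ± 0.37, adjusted p = 0.01).

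The change in BTSO was tested against the change in TBO with an interaction term, which uses the same BTSO libraries as the calls above. It gave 246 genes (1.48%), 231 of them with a more negative change in BTSO (1.39%) and 15 with a more positive one (0.0905%), and 159 of the 246 were genes called higher in TBO and not called in BTSO. Of the genes called in BTSO, 32 passed this test as well, 25 lower and 7 higher. All 3 SABP2-like genes were among them, with a change of -2.62 to -2.85 relative to TBO, but the TBO means of each were under 4 FPKM on both days. The ARG2 locus differed by -1.53 (adjusted p = 0.0015) at like levels in both varieties. Cs1g26700 has no descriptive name, and its annotations differ. Its gene ontology terms name polar auxin transport, while its KEGG pathways include the pentose phosphate pathway and carbon metabolism. It had 23.2, 37.4 and 33.5 FPKM in BTSO at 30 DAS and 11.1, 10.4 and 11.3 FPKM at 60 DAS (-1.41 ± 0.16, adjusted p = 2.4e-05), while its TBO means were 23.1 and 32.1 FPKM, a difference between the varieties of -1.87 (adjusted p = 2.6e-05). The methyltransferase orange1.1t00778 had means of 3.89 and 0.70 FPKM in BTSO (-1.39 ± 0.40, adjusted p = 0.025) and of 0.52 and 9.92 FPKM in TBO (2.83, adjusted p = 5.7e-05), the largest difference between varieties among the genes named here, -4.21. Its call in BTSO was lost without replicate 2 of 30 DAS (adjusted p = 0.14) and without any 1 library of 60 DAS (adjusted p = 0.052 to 0.066). On the other side, Cs6g11440 (1.18, adjusted p = 0.02), Cs1g24250 (1.35, adjusted p = 0.035) and orange1.1t03231, an aspartic protease by annotation (1.35, adjusted p = 0.035), increased in BTSO and stayed under 1 FPKM in the TBO means of both days.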

How the data were processed

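The authors aligned the reads, assembled transcripts per library with StringTie, merged them and gave FPKM per gene. Their processing notes name Bowtie 0.12.2, HISAT2 2.0, StringTie 1.3.0 and the build mm8, which is a mouse build, and the sweet orange build is not given in the sources used here. The deposited FPKM values were tested, and the deposited estimated counts were used as given and only in alternatives. Depth was judged from the totals of the estimated counts, which are not read numbers. Of the genes, 13877 are assembled loci without coordinates, and 444 carry more than 1 gene name.

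Genes were kept where 3 or more of the 30 libraries had an FPKM of 1 or more. A limma 3.58.1 fit with an intensity trend on log2(FPKM + 1), with 1 mean for each of the 10 groups over all 30 libraries, gave the log2 differences, which understate the change of low genes. Each replicate is a separate sample by its label, drawn from a pool of fruit, so p-values measure the spread between such pools. That spread is averaged for each gene over all 10 groups and is not that of the 6 libraries compared. Genes near 0 in TBO vary little there on this scale. Among them Cs5g16210 had an adjusted p of 4.1e-05 in this fit, 0.11 with the 6 libraries alone and 0.17 with DESeq2. The self-test on simulated data for the comparison of 60 with 30 DAS in BTSO (16578 genes) recovered 48 of 50 genes changed by a log2 of 1.5, with 1 false call. The changed genes were drawn above a minimum mean level, with independent normal noise of the same spread in every group. It therefore does not speak to low genes, to unequal spread between groups or to replicates in which many genes shift together. Alternatives with edgeR 4.0.16, DESeq2 1.42.0, other scalings, filters and pseudocounts and each library left out are in the closing section.

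The genes given by name were the 10 per direction with the largest difference and separate libraries, the 5 per direction with the largest difference in FPKM, up to 3 per direction in each list with a call, the 5 per direction with the smallest p in the interaction and the 14 genes of the study. Genes without a descriptive name were given by their gene ontology terms where those name a function, though not in every case. That use of the terms was decided after the data were seen. Not described above were the higher genes orange1.1t03244 (transmembrane transporter activity, log2 difference 1.67) and orange1.1t03286 (alkane biosynthesis, 1.61). The same holds for Cs3g22850 (lipid binding, 1.17) and Cs4g13870 (dioxygenase activity, 1.21). The calls of all but orange1.1t03244 were lost without replicate 2 of 30 DAS or replicate 3 of 60 DAS. Cs2g27610, Cs4g05490, orange1.1t02241, Cs2g31400, Cs9g15430, Cs1g22020, Cs5g09360, Cs7g28650, the genes that passed on the adjusted p alone and the families by description or orthology were chosen after their values were seen. The comparison and the lists were chosen with earlier results of these data known. The search of promoters for motifs was not run. The ARG2 locus was the call of the auxin response list (38 tested), and lists not described held none.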

Additional observations from a re-analysis of the deposited data

Results flagged for a closer look

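The change from 30 to 60 DAS differed between BTSO and TBO, by the interaction term in limma, in 246 genes. Of these, 159 were called higher in TBO and not called in BTSO. The differences of the genes named in this study of BTSO are given here as the log2 change in BTSO minus that in TBO. They were negative in the SABP2-like genes Cs1g23200 (-2.62), Cs1g23170 (-2.62) and Cs1g23160 (-2.85), in the methyltransferases Cs5g18040 (-3.25), Cs5g18010 (-2.89) and orange1.1t00778 (-4.21), in the ARG2 locus (-1.53), in bHLH144 (Cs2g03700, -1.03) and in Cs1g26700 (-1.87), Cs5g02920 (-2.64), Cs5g16210 (-1.88), orange1.1t04504 (-1.21) and the assembled locus MSTRG.1088 (-2.27), which have no descriptive name. They were positive in the extensin-3-like locus within Cs3g21160 (2.31), the racemase-like gene Cs1g13080 (2.30), the water channel Cs8g16640 (1.53), the laccase Cs1g24250 (1.35), the protease orange1.1t03231 (1.35), the pectinesterase Cs6g11440 (1.18) and Cs7g07730 (1.12), which is undescribed. Several are nearly unexpressed in TBO, among them Cs5g16210 (mean 0.02 FPKM at 30 DAS and 0.03 FPKM at 60 DAS).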

How the results depend on the processing

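All 151 called genes kept their direction in every alternative in which they were tested. The count of calls was 306 with a pseudocount of 0.1, 318 with the ratio of mean FPKM as the effect size, 283 with edgeR and 376 with DESeq2 on the estimated counts, and 22 with the fit on the 6 libraries alone. It was 160 with the replicate block, and 120 to 219 without 1 library. Same-numbered replicates of 30 and 60 DAS deviated together with r = -0.11, 0.14 and 0.13 and not every replicate correlated best with its own number, so the numbers were not taken to pair the samples. The interaction gave 460 genes on the unadjusted p, 75 with the filter on the 6 BTSO libraries, which removes genes expressed only in TBO, and 161 to 305 without 1 library, the lowest without replicate 3 of TBO at 60 DAS. Genes called the same way from 15 to 90 DAS numbered 61, and 143 with a pseudocount of 0.1, 139 with the ratio of means, 122 with edgeR, 154 with DESeq2 and 46 to 83 without 1 library. Genes called the same way in TBO numbered 9, and 20 with a pseudocount of 0.1, 19 with the ratio of means, 16 with edgeR, 32 with DESeq2, 0 with the fit on the libraries compared alone, where 22 genes were called in BTSO, and 6 to 17 without 1 library, the highest without replicate 1 of TBO at 30 DAS. The difference in genes listed above 0 was -223 (-267 to -171 without 1 library), and 161 where an FPKM of 1 counts as detected. The cause of these shifts was not tested, apart from the filter. Of 59 named genes called, 12 were called in every alternative. The fit on the 6 libraries alone lost 45 of the 59, edgeR 10 and DESeq2 10. Of 20 list counts above 0, 262 of 340 values over the alternatives were within 1.5 times and 35 were 0, and 14 of the 20 counts were 0 with the fit on the 6 libraries alone.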

Other observations

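Outside the lists fixed for the comparison, the genes were also grouped by the KEGG pathways of the table, a grouping added after the data were seen. Of 11 genes tested under indole alkaloid biosynthesis, 4 fell and none rose, and 6 were lower on the adjusted p alone, with a median log2 difference of -0.83. The 4 were the SABP2-like esterases Cs1g23160, Cs1g23170 and Cs1g23200 and orange1.1t05735 (-1.17). Of all genes tested 0.501% fell and 0.41% rose, and on the adjusted p alone 2.49% were lower and 9.4% higher. Of 177 genes of ribosome biogenesis 1 rose, and 35 were higher and none lower on the adjusted p alone, with a median of 0.18 beside 0.08 for all genes. Of 57 genes under the citrate cycle 1 fell, 3 were higher and 2 lower on the adjusted p alone, and the median was 0.03.

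The difference that was largest in size over all genes tested belonged to no called gene. Cs5g09360, described as a 21 kDa protein and annotated as an enzyme inhibitor, had 0.41, 0.22 and 0.27 FPKM at 30 DAS and 21.4, 509 and 436 FPKM at 60 DAS (log2 difference 7.04, adjusted p = 0.12). Over all 30 libraries it was under 2 FPKM in 16 and over 100 FPKM in 12, 6 of them of BTSO, with replicates of 1 group on both sides.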
